A study of Mus musculus with 14 samples.

Results

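The genes described here are 40 type I interferon-stimulated genes, chosen by name from a list of textbook members of the response. All 40 were found in the count tables of both tissues, 1 row each, among 24732 features. RNA of aorta and liver had been sequenced from HuBL and BT3xHuBL mice kept for 52 weeks on a normal laboratory diet, giving 14 libraries in 4 groups. Aorta gave 3 libraries of each genotype and liver gave 4 of each. Neither strain name is explained in the labels. In the literature of this field, HuBL mice lack the low density lipoprotein receptor and express human apolipoprotein B from a transgene. BT lines add a rearranged T cell receptor specific for that protein. HuBL is then the control group, and the lipoprotein alleles are shared by both genotypes. The series title concerns atheroprotective immunity, interleukin-10 and plaque stability. Whether each library is a different animal is not stated, and p-values therefore describe only how these libraries vary, which may be technical variation.

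Type I interferons, the alpha and beta interferons, are secreted when a cell senses foreign or misplaced nucleic acid. They bind the Ifnar1 and Ifnar2 receptor, whose kinases Jak1 and Tyk2 phosphorylate transcription factors of the STAT family. Stat2 and Irf9 belong to the resulting complex, called ISGF3, which binds the interferon-stimulated response element in promoters and raises transcription of antiviral genes. The induced genes include sensors of viral RNA, enzymes that degrade or block it, and Irf7, which makes cells ready to produce more interferon. Low tonic signalling keeps these genes expressed in healthy tissue, hepatocytes and macrophages included.

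The response element stands close to the start of several members whose levels are described here, and the 200 bases before the start are shown for 7 of them to make it visible. The sequences are from RefSeq on GRCm38.p6, written 5′ to 3′ on the strand of the gene, with capitals at each match to the motif searched, GAAA repeated after any 2 bases, or its reverse complement, TTTC repeated after any 2 bases. Isg15 (chr4:156200819-156201018, minus strand) has 3 overlapping matches, Ifit1 (chr19:34640689-34640888, plus strand) and Ifit3 (chr19:34583329-34583528, plus strand) each have 2 separate ones, and Rsad2 (chr12:26456453-26456652, minus strand) has 1. Bst2 (chr8:71537473-71537672, minus strand) has 2 overlapping matches. Oas1a (chr5:120907526-120907725, minus strand) and its neighbour Oas1g (chr5:120887614-120887813, minus strand) are shown together because their 200 bases were 83.5% identical, with the same 2 overlapping matches at the end next to the start.
Isg15: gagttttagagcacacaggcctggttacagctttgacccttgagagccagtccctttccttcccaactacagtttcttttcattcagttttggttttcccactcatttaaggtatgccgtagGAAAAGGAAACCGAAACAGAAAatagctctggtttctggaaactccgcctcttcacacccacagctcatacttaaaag
Ifit1: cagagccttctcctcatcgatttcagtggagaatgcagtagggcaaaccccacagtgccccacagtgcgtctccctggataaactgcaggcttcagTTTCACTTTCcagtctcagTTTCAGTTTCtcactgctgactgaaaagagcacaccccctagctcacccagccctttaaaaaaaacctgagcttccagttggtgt
Ifit3: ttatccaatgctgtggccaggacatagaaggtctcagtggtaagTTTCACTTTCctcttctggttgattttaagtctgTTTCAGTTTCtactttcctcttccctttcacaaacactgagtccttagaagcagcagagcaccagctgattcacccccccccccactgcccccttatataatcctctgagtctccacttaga
Rsad2: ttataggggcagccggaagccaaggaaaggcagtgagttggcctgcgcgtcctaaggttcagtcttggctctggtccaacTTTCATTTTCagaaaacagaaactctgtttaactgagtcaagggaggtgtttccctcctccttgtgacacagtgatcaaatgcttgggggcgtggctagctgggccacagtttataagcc
Bst2: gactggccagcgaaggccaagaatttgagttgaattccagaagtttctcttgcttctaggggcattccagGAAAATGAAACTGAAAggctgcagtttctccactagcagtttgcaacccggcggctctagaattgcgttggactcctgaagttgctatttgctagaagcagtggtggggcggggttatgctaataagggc
Oas1a: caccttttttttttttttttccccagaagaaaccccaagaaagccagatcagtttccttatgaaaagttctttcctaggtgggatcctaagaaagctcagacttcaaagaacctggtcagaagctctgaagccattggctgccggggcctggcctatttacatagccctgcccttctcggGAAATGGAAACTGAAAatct
Oas1g: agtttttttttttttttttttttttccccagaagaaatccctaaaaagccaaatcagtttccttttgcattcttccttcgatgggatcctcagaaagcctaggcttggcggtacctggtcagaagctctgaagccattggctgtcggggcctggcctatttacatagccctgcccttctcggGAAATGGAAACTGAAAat

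RefSeq promoter windows of 300 bases, from 250 before to 50 after the start, were matched for 30 of the 40 members. The motif, searched on both strands, occurred in 15 of these 30. Counted by gene in the same way, it occurred in any window of 1079 of 27025 gene symbols, or 3.99%. Counted by window, it occurred in 1131 of all 32851, or 3.44%. In 8 members a window held 2 or more matches. The liver difference between genotypes, defined further on, had a median log2 fold change of −0.72 over the 15 members with a match and −0.56 over the 15 matched members without one. The members without a match included Irf7, Ifi44, Oasl1, Oasl2 and Cmpk2. A match is a string of letters in this window and was not tested for binding.

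Depth was 41933263 to 65539765 counts in aorta and 13228123 to 17992459 in liver, and the members took 0.1273% to 0.1633% and 0.2947% to 0.8553% of them. The lowest count of any member in any library was 162 in aorta (Oasl1) and 58 in liver (Oas3). Hepatocyte and smooth muscle markers parted by tissue. Levels are given as CPM, counts scaled to a fixed library total. Summed hepatocyte markers were 102000 to 135000 CPM in liver and at most 1.32 CPM in aorta, and summed smooth muscle markers were 11300 to 15300 CPM in aorta and 14.3 to 41.3 CPM in liver. The tables hold no human apolipoprotein B row, and no source used here names the receptor segments of the transgene. Counts of the 22 T cell receptor beta variable features were therefore set against those of the alpha constant gene Trac. In aorta the ratio was 1.33 to 2.49 in HuBL and 0.426 to 0.603 in BT3xHuBL. In liver it was at most 0.667 in HuBL, 0.0909 and 0.235 in BT3xHuBL replicates 1 and 2, and 1.18 and 1.0 in BT3xHuBL replicates 3 and 4. The liver ratios rest on 1 to 14 variable segment counts a library, so they do not settle the genotype of the libraries labelled BT3xHuBL liver replicates 3 and 4. These were also the libraries with the lowest levels of the members, and the main liver results are given with and without them.

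In liver, all 40 members lay lower in BT3xHuBL than in HuBL on average, but none passed the threshold of 0.05 on adjusted p in edgeR (quasi-likelihood F-test, Benjamini-Hochberg over all features). Among 12453 features tested 0% passed, and 48.2% had a log2 fold change below 0. The members' log2 fold changes ran from −1.5 to −0.2 with a median of −0.64, where the median of all features was 0.01. Unadjusted p was under 0.05 for 20 of the 40, all lower, against 5.38% of features lower at that level. All 4 BT3xHuBL libraries lay below all 4 HuBL libraries for 9 members (Mx2, Oas2, Oas3, Rsad2, Cmpk2, Bst2, Ifitm3, Xaf1 and Ifi35), and for 3.58% of all features. The low values of 2 libraries carried much of this. BT3xHuBL replicates 3 and 4 were both below every other liver library for 35 of the 40 members, which held for 653 features in all, or 5.24%. Without these 2 libraries 37 members lay below 0, the median was −0.35, 6 had an unadjusted p under 0.05, all lower, against 6.44% of features lower at that level in that fit, and 0 passed in edgeR. The library numbers in the labels run by genotype in liver, HuBL first and BT3xHuBL replicates 3 and 4 last. Genotype and library order therefore cannot be told apart in liver. In aorta the BT3xHuBL numbers lie between those of HuBL libraries. In bulk tissue, fewer cells of a type and less RNA per cell cannot be told apart.

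**Figure D1:**
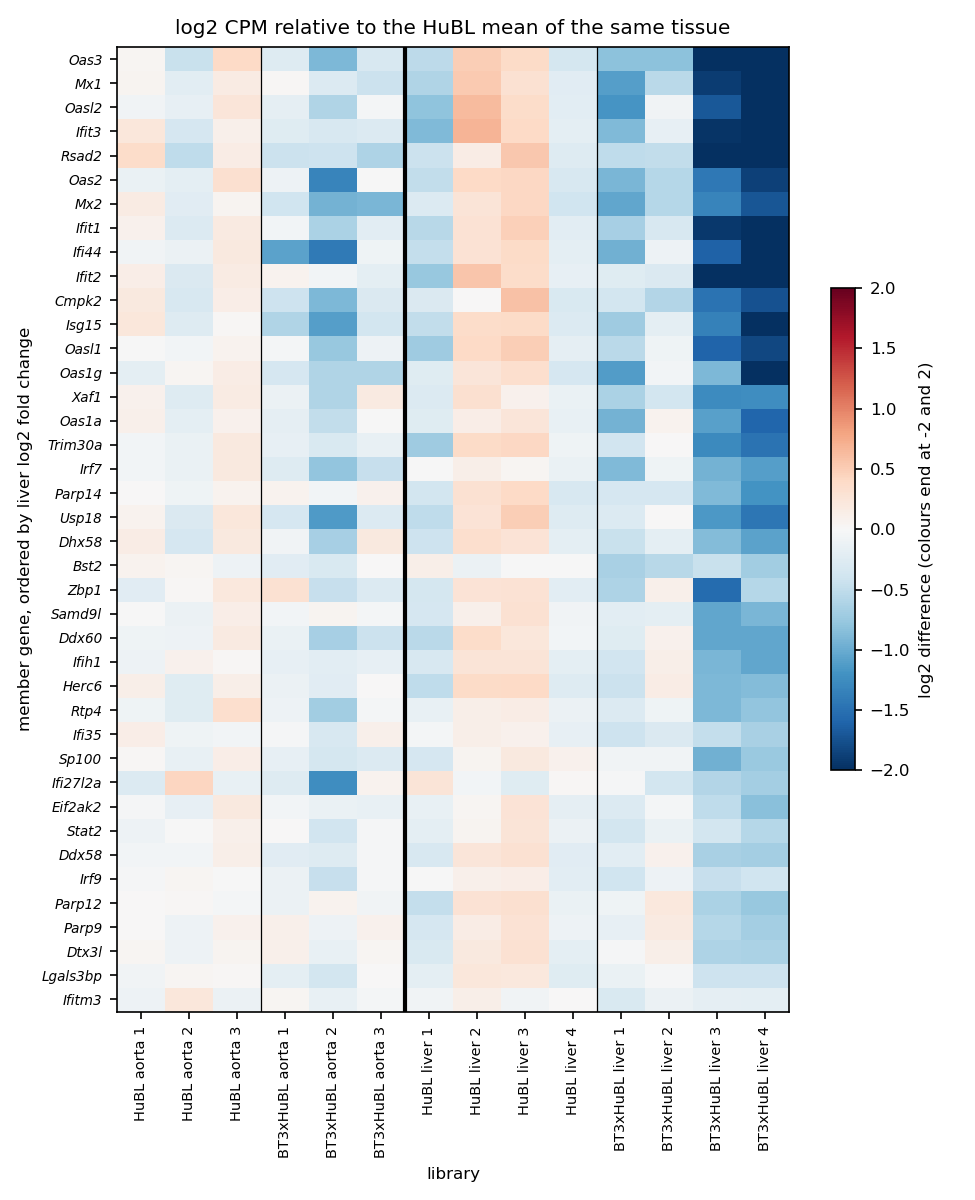
log2 CPM of each of the 40 members (rows, ordered by liver log2 fold change) in each of the 14 libraries (columns), relative to the mean of the HuBL libraries of the same tissue. Blue is lower and red is higher, and colours end at −2 and 2. The columns of BT3xHuBL liver replicates 3 and 4 are the darkest blue, and BT3xHuBL aorta replicate 2 is the bluest aorta column.

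The transcription factors of the response differed modestly. Irf7, the interferon regulatory factor that amplifies interferon production, was at 406, 442, 420 and 373 CPM in HuBL livers and at 223, 387, 212 and 190 CPM in BT3xHuBL livers. BT3xHuBL replicate 2 reached into the HuBL range, while the other 3 lay well below it. The log2 fold change was −0.70 (SE 0.20, edgeR adjusted p = 0.307). Without BT3xHuBL replicate 2 it was −0.98 with an adjusted p of 0.0142 in edgeR, the only call of a member when 1 liver library was left out, and without replicates 3 and 4 it was −0.43 (SE 0.20, edgeR adjusted p = 0.432). Over the 19 alternatives its adjusted p ran from 0.0142 to 0.557. Stat2 and Irf9, which belong to ISGF3, went from 208 ± 29.3 to 162 ± 20.1 CPM and from 108 ± 11.3 to 85.2 ± 10.1 CPM (SD, n = 4 each). Stat2 differed by a log2 fold change of −0.36 (SE 0.12) and Irf9 by −0.34 (SE 0.11), with overlapping groups.

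Effector genes of the IFIT, OAS and Mx families held the largest liver differences. Over the 4 genes of the Mx proteins, viperin and Cmpk2 the median log2 fold change was −1.16, and over the 3 IFIT genes −1.11. Over the 7 genes of the OAS family, with the kinase PKR counted among them, it was −0.91. Without replicates 3 and 4 these medians were −0.69, −0.54 and −0.52. Of all members, 10 were more than 2-fold lower. Fewer than 1% of all liver features were, since their 1st percentile was a log2 fold change of −0.89. Mx2, a dynamin-like GTPase that restricts viruses and is annotated in GENCODE M21 as a polymorphic pseudogene, gave 66.8, 96.5, 108 and 60.9 CPM in the HuBL livers and 39.2, 54.5, 32.4 and 24.7 CPM in the BT3xHuBL livers. The groups did not overlap, and the log2 fold change was −1.14 (SE 0.27, edgeR adjusted p = 0.281), or −0.82 without replicates 3 and 4. Its neighbour Mx1 on chromosome 16 was at 41.1, 89.7, 77.1 and 53.1 CPM against 29, 42.7, 16.8 and 9.88 CPM. Here the groups overlapped slightly, at HuBL replicate 1 and BT3xHuBL replicate 2, and the log2 fold change was −1.41 (SE 0.47, edgeR adjusted p = 0.376), or −0.86 without replicates 3 and 4.

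Rsad2 encodes viperin, a radical enzyme that makes a chain-terminating nucleotide, and Cmpk2, which lies beside it in head-to-head orientation on chromosome 12, makes its nucleotide substrate. Rsad2 gave 357, 528, 696 and 401 CPM in the HuBL livers and 337, 341, 114 and 85.4 CPM in the BT3xHuBL livers, so that replicates 1 and 2 lay just under the HuBL range and replicates 3 and 4 far under it. The resulting log2 fold change was −1.17 (SE 0.51, edgeR adjusted p = 0.451). Cmpk2 followed the same order of libraries at its low end, with 150, 183, 273 and 148 CPM against 142, 121, 65.5 and 54.4 CPM, a log2 fold change of −0.98 (SE 0.35, edgeR adjusted p = 0.397). Without replicates 3 and 4 Rsad2 was at −0.55 and Cmpk2 at −0.52.

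The oligoadenylate synthetases make a signal molecule that activates an RNA-degrading nuclease. Oas2 gave 41.3, 77, 77.2 and 46.6 CPM in HuBL livers, and 30.8, 39.3, 21.6 and 16 CPM in BT3xHuBL livers. Every BT3xHuBL library was under every HuBL library, and the log2 fold change was −1.17 (SE 0.33, edgeR adjusted p = 0.317), or −0.79 without replicates 3 and 4. Oas3 had the lowest log2 fold change of the members, −1.5 (SE 0.48, edgeR adjusted p = 0.358), from 22.6 ± 7.66 to 8 ± 4.94 CPM (SD, n = 4 each), and was at −0.88 without those libraries. Oasl2, an OAS-like protein, spanned 12.4-fold between its highest and lowest liver library, the widest range of any member. Its log2 fold change of −1.23 had an SE of 0.63. Eif2ak2, which encodes the RNA-activated kinase PKR that halts translation, was least apart in this group at −0.40 (SE 0.17). Oas1a and Oas1g, whose promoters are printed above, were at −0.77 (SE 0.33) and −0.89 (SE 0.38). The last 300 bases of their longest transcripts were 41.7% identical. Whether reads were assigned to the right gene of the pair was not tested, and the aligner is not given.

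The IFIT proteins bind viral RNA that lacks the host cap modification. Ifit1 was at 378, 677, 768 and 478 CPM in HuBL livers and at 350, 442, 146 and 124 CPM in BT3xHuBL livers, with a log2 fold change of −1.11 (SE 0.46, edgeR adjusted p = 0.432). BT3xHuBL replicate 2 lay inside the HuBL range. Ifit3, a partner of the other IFIT proteins, was at 177, 524, 429 and 286 CPM against 177, 291, 83.6 and 51.8 CPM. The 3 genes lie near each other on chromosome 19, and all had wide library ranges of 6.18-fold to 10.1-fold in liver. Their SEs of 0.46 to 0.60 were among the largest of the list. Without replicates 3 and 4 Ifit1, Ifit2 and Ifit3 were at −0.54, −0.35 and −0.60.

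**Figure D2:**
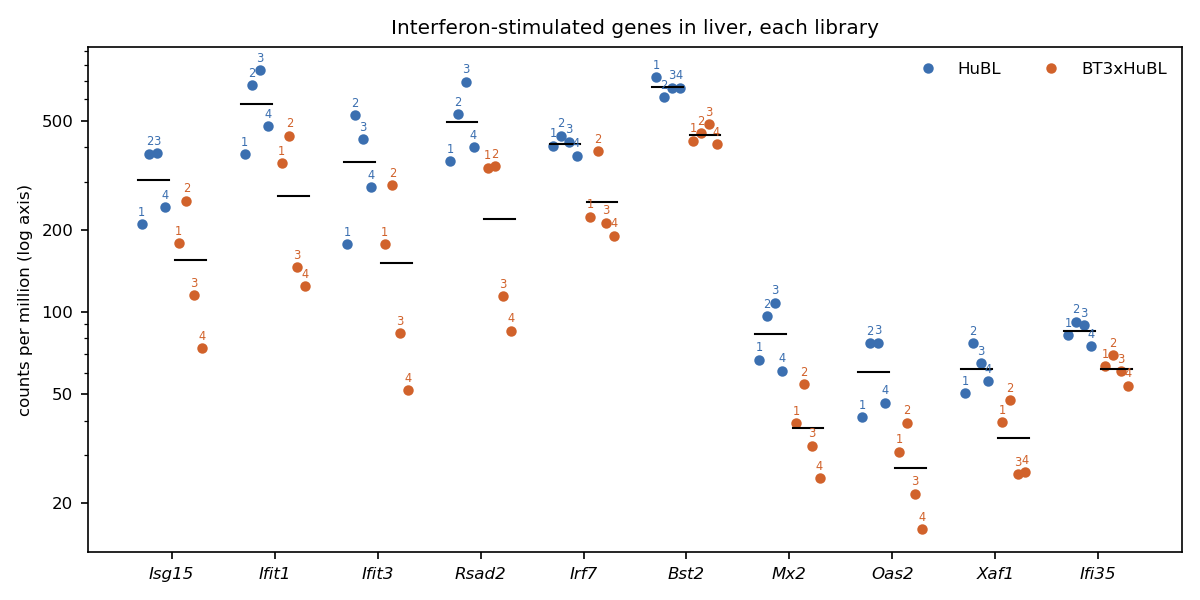
CPM (log axis) of 10 members in each of the 8 liver libraries, HuBL in blue and BT3xHuBL in orange, numbered by replicate, with black bars at the group means. For Bst2, Mx2, Oas2, Xaf1, Ifi35 and Rsad2 the genotypes do not overlap, and BT3xHuBL replicate 2 reaches the HuBL range for Isg15, Ifit1, Ifit3 and Irf7.

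Isg15, a ubiquitin-like protein that is conjugated to other proteins, is removed by Usp18 and attached by Herc6. Isg15 was at 209, 379, 382 and 242 CPM in HuBL livers and at 178, 255, 115 and 73.7 CPM in BT3xHuBL livers, a log2 fold change of −0.96 (SE 0.40, edgeR adjusted p = 0.43). Replicate 2 of BT3xHuBL lay above 2 of the 4 HuBL libraries. Usp18, which also turns off receptor signalling, was at −0.65 (SE 0.37) and Herc6 at −0.50 (SE 0.30), both with overlapping groups. Without replicates 3 and 4 Isg15, Usp18 and Herc6 were at −0.48, −0.18 and −0.17. Among the 5 sensors, Ifih1 (MDA5) and Ddx58 (RIG-I), the receptors of viral RNA, were at −0.51 (SE 0.26) and −0.35 (SE 0.21). Dhx58, their regulator LGP2, was at −0.64 (SE 0.23), Ddx60 at −0.52 (SE 0.30), and Zbp1, the sensor of left-handed nucleic acid, at −0.57 (SE 0.32). The median of the sensors was −0.52, or −0.14 without replicates 3 and 4.

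Bst2 had the smallest p of the members and did not follow the 2 low libraries. It encodes tetherin, a membrane protein that holds budding virus particles at the cell surface. Its level was 722, 610, 661 and 661 CPM in HuBL livers and 423, 451, 486 and 410 CPM in BT3xHuBL livers. The groups lay apart with little spread in either, and BT3xHuBL replicate 3 was the highest of its group. The log2 fold change was −0.58 (95% interval −0.80 to −0.37, SE 0.10), 1.5-fold lower, with an adjusted p of 0.134 in edgeR. It was −0.60 (SE 0.12) without replicates 3 and 4, with an edgeR adjusted p of 0.244. Ifitm3, the other membrane restriction factor, which blocks fusion of virus with the endosome, went from 662 ± 42.2 to 577 ± 31.8 CPM (SD, n = 4 each). At −0.20 (SE 0.09) it was the smallest difference of the list, yet its groups did not overlap.

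Ifi35, a regulator of RNA sensing, was at 82.3, 92.2, 89.7 and 75.1 CPM in HuBL livers and at 63.3, 69.4, 60.7 and 53.7 CPM in BT3xHuBL livers. These narrow groups lay apart, with a log2 fold change of −0.46 (SE 0.10, edgeR adjusted p = 0.215), or −0.35 without replicates 3 and 4. Xaf1, a pro-apoptotic factor that counters an inhibitor of caspases, was at 50.5, 76.8, 64.9 and 55.9 CPM against 39.4, 47.5, 25.5 and 25.9 CPM, a log2 fold change of −0.84 (SE 0.22, edgeR adjusted p = 0.281), or −0.51 without replicates 3 and 4. The 9 genes outside the named families had a median of −0.47, or −0.23 without those libraries. They included Ifi44 at −1.05 (SE 0.45), Trim30a, a regulator of inflammatory signalling, at −0.72 (SE 0.40), Samd9l at −0.56 (SE 0.22), Rtp4 at −0.47 (SE 0.17), Sp100, a nuclear body protein, at −0.42 (SE 0.21), Ifi27l2a at −0.40 (SE 0.15) and Lgals3bp at −0.25 (SE 0.14). The end of the longest Trim30a transcript is 83.9% identical over 300 bases to that of its paralog Trim30d, so its counts are uncertain to that degree.

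The genes of the ADP-ribosylation group were nearest to 0 with a median of −0.29. Parp14, an ADP-ribosyltransferase, was at 145, 231, 248 and 150 CPM in HuBL livers and at 149, 149, 102 and 82.2 CPM in BT3xHuBL livers, a log2 fold change of −0.68 (SE 0.25). BT3xHuBL replicates 1 and 2 lay inside the HuBL range. Parp12, Parp9 and its partner ubiquitin ligase Dtx3l were at −0.29 (SE 0.25), −0.28 (SE 0.20) and −0.27 (SE 0.20). Without replicates 3 and 4 Parp14 was at −0.38, and the other 3 lay just above 0, at 0.04, 0.01 and 0.03. Parp9 and Dtx3l overlap head to head, at their starts, on chromosome 16. Both carry the overlap mark of the count tables together with Ifi27l2a. The libraries read the 3′ end of a transcript, and whether reads of the pair were shared was not tested.

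Other tools gave different calls on the same liver counts. DESeq2 called 6 members lower (Bst2, Ifi35, Irf7, Mx2, Oas2 and Xaf1), with adjusted p from 6.98e-07 for Bst2 to 0.0492 for Irf7, where it called 0.787% of features lower. In limma-voom 0 members passed and 32 had an unadjusted p under 0.05, where 11.7% of features did. Over the 19 alternatives the adjusted p of Bst2 ran from 6.98e-07 to 0.439, and those of Mx2 and Oas2 from 0.00206 to 0.548 and from 0.00781 to 0.56. Within HuBL the members were not level either. HuBL replicates 2 and 3 lay above replicates 1 and 4 for 36 of the 40 members. The median log2 ratio of the members to the HuBL mean was −0.34, 0.25, 0.31 and −0.19 in HuBL replicates 1 to 4 and −0.41, −0.10, −1.0 and −1.09 in the BT3xHuBL replicates. BT3xHuBL replicate 1 was thus near HuBL replicate 1, and replicate 2 lay between the HuBL libraries.

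**Figure D3:**
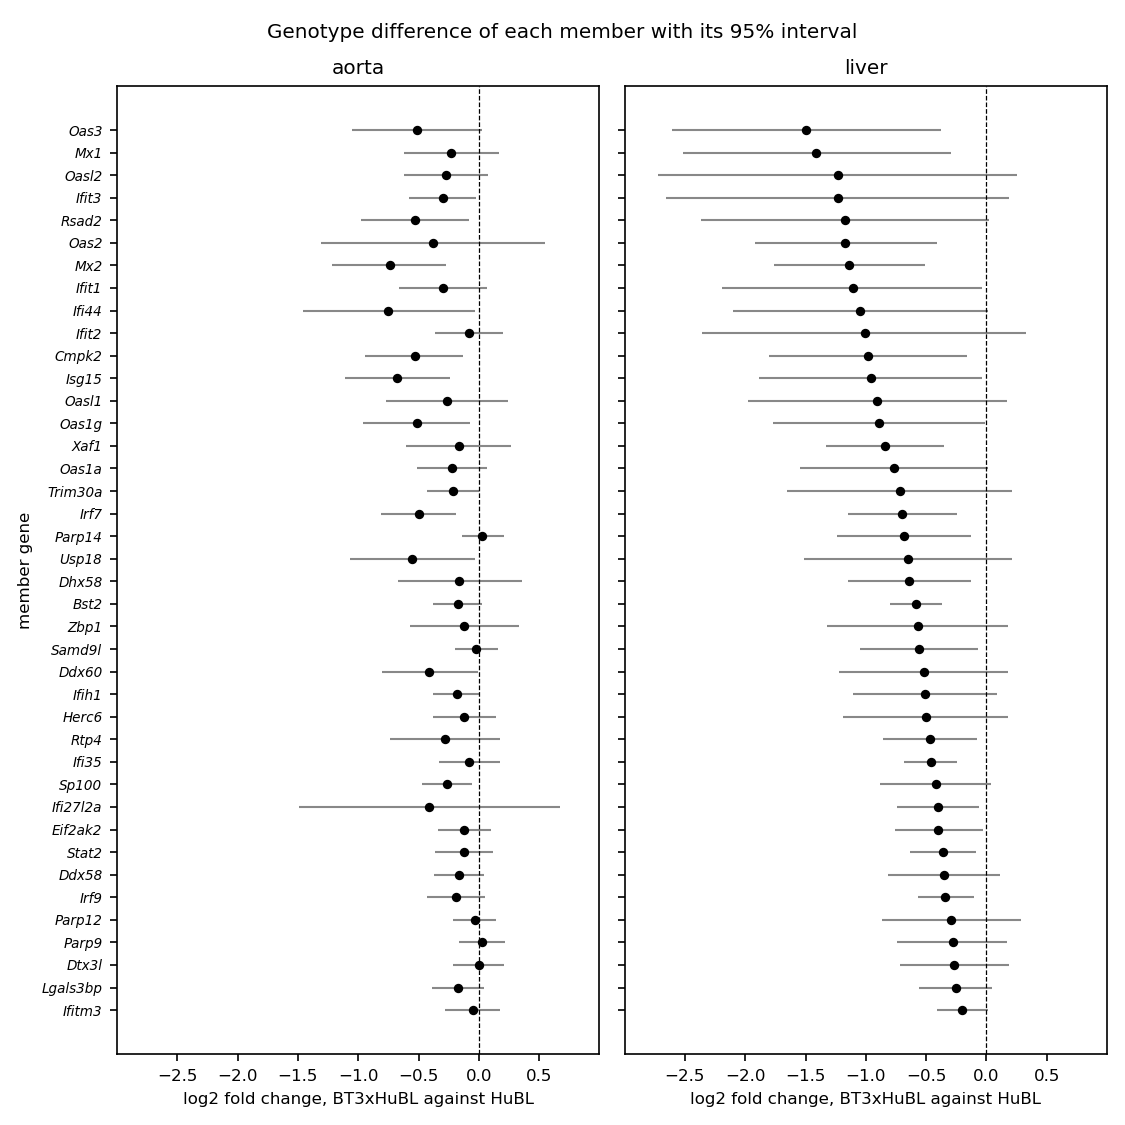
log2 fold change of BT3xHuBL against HuBL for each of the 40 members (points) with its 95% interval (lines), in aorta and in liver, ordered by the liver value. All 40 liver points and 38 aorta points lie below the dashed line at 0, and 20 liver intervals end below it.

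In aorta the members lay slightly lower in BT3xHuBL, and again none passed. Their log2 fold changes ran from −0.75 to 0.03 with a median of −0.22, against −0.00 over all features. Of 15400 features tested 0.026% passed in edgeR, and 51.5% were below 0, against 38 of the 40 members. Unadjusted p was under 0.05 for 11 members, all lower, and for 1.96% of features lower. DESeq2 also called 0 members, with 11 at an unadjusted p under 0.05, where 4.64% of features were. All 3 BT3xHuBL libraries lay below all 3 HuBL libraries for 9 members (Isg15, Irf7, Irf9, Mx2, Oas1g, Ifih1, Ddx60, Trim30a and Sp100) and for 4.90% of features. BT3xHuBL replicate 2 was the lowest aorta library for 30 of the 40 members. Without it 33 members lay below 0, the median was −0.11 and 4 had an unadjusted p under 0.05. Without HuBL replicate 3, the highest library for 19 members, the median was −0.16 with 3 at that level, and without HuBL replicate 1 it was −0.22 with 5. Over all features 4.68%, 3.23% and 3.47% reached that level in these fits, in that order.

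Irf7 had the smallest p in aorta. It was at 29.6, 28.1 and 35.4 CPM in HuBL aortas and at 25.7, 17.9 and 22.5 CPM in BT3xHuBL aortas, with no overlap and a log2 fold change of −0.50 (SE 0.14, edgeR adjusted p = 0.896). Without BT3xHuBL replicate 2 this was −0.36. Mx2 was at 6.1, 4.62 and 5.65 CPM against 4.09, 2.83 and 2.88 CPM, a log2 fold change of −0.74 (SE 0.21, edgeR adjusted p = 0.899). Without BT3xHuBL replicate 2 it was −0.65.

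Isg15 was at 22.9, 16.4 and 19.8 CPM in HuBL aortas and at 12.9, 9.07 and 15.2 CPM in BT3xHuBL aortas. The groups lay apart, with a log2 fold change of −0.68 (SE 0.19, edgeR adjusted p = 0.899). Its relative on the pathway, Usp18, was at −0.55 (SE 0.23). Cmpk2 was at 16.6, 11.7 and 15.9 CPM against 10.9, 7.81 and 11.9 CPM, overlapping between HuBL replicate 2 and BT3xHuBL replicate 3. Rsad2 was at 18.6, 10.1 and 15.9 CPM against 10.7, 10.8 and 9.39 CPM, and HuBL replicate 2 lay inside the BT3xHuBL range. Both genes had a log2 fold change of −0.53, with SEs of 0.18 and 0.20. Sp100 was at 45.9, 40.7 and 49.6 CPM against 40.6, 35.5 and 37.3 CPM, apart by a narrow margin, at −0.26 (SE 0.09).

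By role, the ISG15 system had an aorta median of −0.55, the Mx, viperin and Cmpk2 genes −0.53, the IFIT genes −0.30, the OAS family and PKR −0.27, the other induced genes −0.21, the transcription factors −0.19, the sensors −0.16 and the membrane factors −0.11. The 4 genes of the ADP-ribosylation group were level between genotypes within their error, from −0.03 to 0.03 with SEs of 0.08 to 0.09. Parp14, for example, was at 50.1, 46.6 and 52.4 CPM in HuBL aortas and 52.4, 47.6 and 52.7 CPM in BT3xHuBL aortas, and its 95% interval was −0.14 to 0.21. Samd9l at −0.02 (SE 0.08) and Ifitm3 at −0.05 (SE 0.10) were also close to 0. Ifi44 had the lowest aorta value, −0.75 (SE 0.31), from 7.62 ± 0.951 to 4.55 ± 2.29 CPM (SD, n = 3 each), with overlapping groups.

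**Figure D4:**
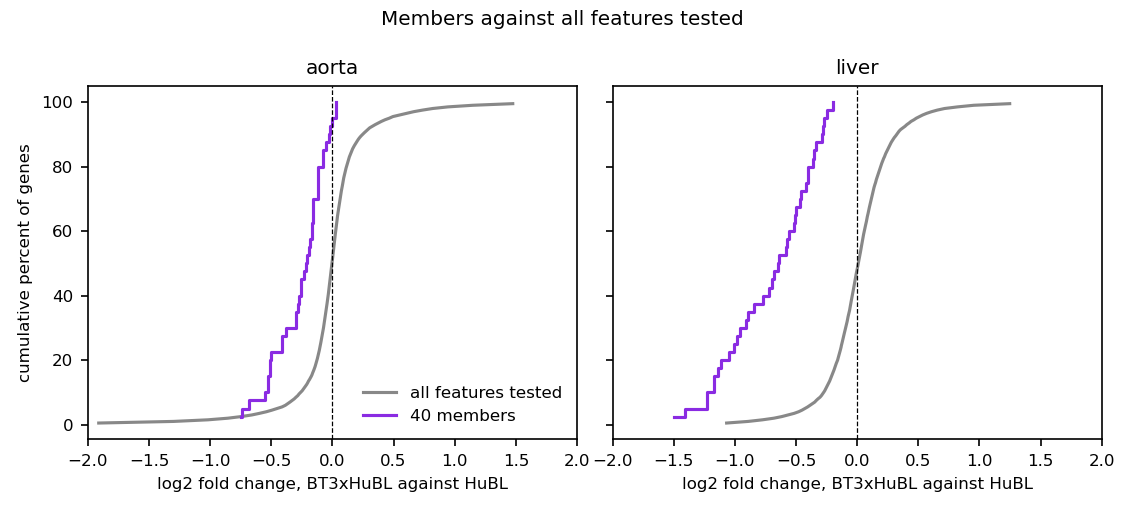
Cumulative percent of genes (vertical axis) by log2 fold change of BT3xHuBL against HuBL (horizontal axis) in aorta and in liver, for the 40 members (purple) and all features tested (grey). The grey curves cross 0 near their middle, and the purple curves have medians of −0.22 in aorta and −0.64 in liver.

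Whether the genotype difference itself differed between tissues was tested as an interaction on all 14 libraries. None of the 40 members passed in edgeR, limma-voom or DESeq2, and 0% of 11951 features passed in edgeR. For all 40 the difference in aorta minus that in liver was above 0, with a median of 0.39, where 50% of features were above 0. Unadjusted p was under 0.05 for 4 members, against 4.48% of features higher at that level. These were Bst2 (0.42, SE 0.14), Ifi35 (0.39, SE 0.16), Parp14 (0.73, SE 0.30) and Mx1 (1.19, SE 0.55), and the smallest edgeR adjusted p was 0.478 for Bst2. Bst2 was at 93.9, 91.5 and 82.8 CPM in HuBL aortas and 75.9, 72.4 and 89.3 CPM in BT3xHuBL aortas, a log2 fold change of −0.17 (SE 0.09) set against −0.58 in liver. Mx1 in aorta was at 7.48, 6.26 and 8.05 CPM against 7.33, 5.96 and 5.36 CPM, and Ifi35 at 36.2, 31.1 and 31.5 CPM against 32.3, 26.4 and 35.1 CPM. Both overlapped between genotypes. The direction over the list rested on 2 liver libraries, since without BT3xHuBL liver replicates 3 and 4 the interaction was above 0 for 27 members with a median of 0.07, and Bst2 stood at 0.45. The count at an unadjusted p under 0.05 was 1 without these 2, and 16 without BT3xHuBL liver replicate 2, where the median was 0.64. Over all features, 10.2% and 9.25% reached that level in these fits, in either direction. With any other library left out the count was 1 to 6, where 5.85% to 9.66% of features reached that level. It was 1 without BT3xHuBL aorta replicate 1, BT3xHuBL aorta replicate 3 or HuBL aorta replicate 2. It was 2 without HuBL aorta replicate 3, BT3xHuBL liver replicate 3 or HuBL liver replicates 2 or 3. A count of 1 or 2 of the 40 members is below these shares. The lowest median, 0.26, came without BT3xHuBL liver replicate 4 or HuBL liver replicate 3. Across the 40 genes, the aorta and liver log2 fold changes had a Pearson r of 0.56 and a Spearman rho of 0.60. This is a description over genes of the same libraries, which are not independent replicates.

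Between tissues nearly all members were lower in aorta. All 40 passed in edgeR, 38 lower and 2 higher, where 88.3% of 14912 features passed, 42% lower and 46.2% higher in aorta. The median log2 difference of the members was −2.80, against 0.09 over all features. Levels were at least 2-fold lower in aorta for 37 members and at least 8-fold lower for 19. The shares of all features at these folds were not counted. Every aorta library lay below every liver library for 36 members and for 34.4% of features, with overlap for Ifit2, Oas3, Ifi27l2a and Sp100. Tissue and library preparation cannot be told apart, since the library numbers in the labels form a separate series for each tissue and liver libraries had fewer counts.

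Oasl1, a regulator of Irf7 translation, had the largest tissue difference. On a scale common to both tissues it was at 1.8 to 3.2 CPM in the 6 aorta libraries (median 2.93) and at 62.1 to 302 CPM in the 8 liver libraries (median 171). Its log2 difference was −5.91 (SE 0.36, edgeR adjusted p = 4.16e-09), 60.2-fold lower. Rsad2 at −5.49 (SE 0.39), Ifi44 at −5.31 (SE 0.38) and Ifit1 at −5.11 (SE 0.34) came next, 45-fold, 39.6-fold and 34.5-fold lower in aorta. The IFIT genes did not go together here, since Ifit2 differed by −1.39 (SE 0.34), with 20.1 to 27.8 CPM in aorta inside its liver range of 18 to 128 CPM. Irf7 at −4.38 (SE 0.17), Isg15 at −4.56 (SE 0.30) and Usp18 at −4.78 (SE 0.30) were far lower in aorta, while the ISGF3 components Stat2 and Irf9 were at −2.60 (SE 0.10) and −2.02 (SE 0.09).

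Ifi27l2a and Sp100 went the other way. Ifi27l2a, a small protein of the Ifi27 family, was at 19 to 59.5 CPM in aorta (median 38.8) and at 18.5 to 35.4 CPM in liver (median 26.4), a log2 difference of 0.62 (SE 0.19, edgeR adjusted p = 0.00643). Sp100 was at 26.3 to 36.7 CPM (median 29.9) against 12.5 to 27.3 CPM (median 22.8), a log2 difference of 0.54 (SE 0.13, edgeR adjusted p = 9.82e-04). The ranges overlapped for both. Scaling by total counts moved the median of all features from 0.09 to 0.85 and that of the members to −2.04. Under it Lgals3bp went from −0.54 to 0.22 and no longer passed (edgeR adjusted p = 0.0599), so its tissue direction depends on the scaling. Ifit2 went from −1.39 to −0.65 and no longer passed either (edgeR adjusted p = 0.102). The members called between tissues were thus 38 under this scaling, and 40 under the other alternatives.

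**Figure D5:**
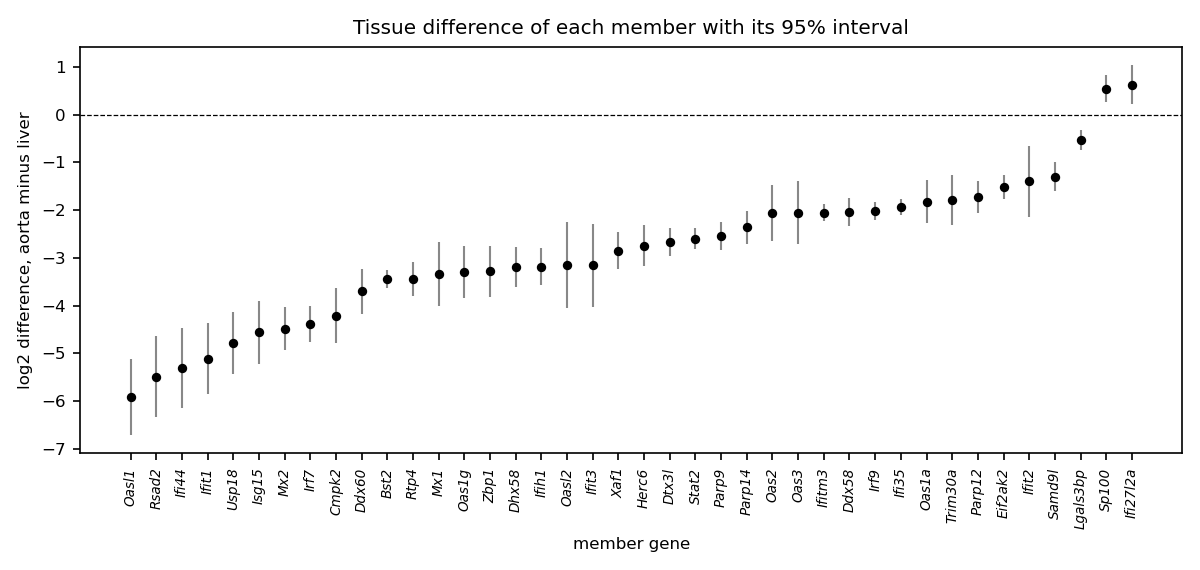
log2 difference of aorta minus liver for each member (points) with its 95% interval (lines), ordered by size, with 0 dashed. Oasl1 is lowest at −5.91, and Sp100 and Ifi27l2a are the 2 members above 0.

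The interferons that induce these genes were almost without counts. Over 20 type I and type III ligand genes a library held 0 to 6 counts in aorta and 0 to 7 in liver. Ifnb1 gave 0 counts in aorta and 12 in the 8 livers, 11 of them in HuBL, too few to compare. Receptor and kinase genes of the pathway were present and none passed in either tissue. The 6 tested in liver had log2 fold changes from −0.17 to 0.11, 3 of them below 0, and 0 had an unadjusted p under 0.05 in edgeR. Of 7 tested in aorta, 5 lay below 0 with a median of −0.06, and again 0 reached that level. The receptor subunit Il10rb and the kinase Tyk2 were at −0.17 (SE 0.15) and −0.10 (SE 0.11) in liver.

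Of 13 sensors and adaptors outside the members tested in liver, 9 lay below 0 with a median of −0.08, where 48.2% of all features did. An unadjusted p under 0.05 was found for 2 of them, and for 11.1% of all features. The 2 genes were Mb21d1, the DNA sensor cGAS, at −1.05 (SE 0.28), and Tlr3, the endosomal receptor of double-stranded RNA, at −0.51 (SE 0.16). Mb21d1 rested on low levels, 2.27 ± 0.643 against 1.09 ± 0.17 CPM (SD, n = 4 each). Of 12 inhibitors and nucleases, 8 lay below 0 with a median of −0.03. Socs1, the feedback inhibitor of the receptor kinases, was at 2.02, 3.78, 6.47 and 1.46 CPM in HuBL livers and at 1.03, 0.463, 1.1 and 0.654 CPM in BT3xHuBL livers, a log2 fold change of −2.05 (SE 0.49, edgeR adjusted p = 0.281). The groups lay apart on 7 to 86 counts a library. Trex1, the nuclease that clears cytosolic DNA, was at −0.45 (SE 0.15), and Ptpn11 at 0.22 (SE 0.09). Irf1, the regulatory factor shared with interferon gamma signalling, was at 77.2, 70.3, 82.8 and 68.5 CPM in HuBL livers and at 60.6, 55.8, 57.1 and 56.3 CPM in BT3xHuBL livers, at −0.38 (SE 0.08, edgeR adjusted p = 0.215). As with Bst2, replicates 3 and 4 of BT3xHuBL did not stand apart for Irf1. Without replicates 3 and 4 Socs1 was at −2.15, Mb21d1 at −0.97, Irf1 at −0.36, Tlr3 at −0.34 and Trex1 at −0.20. In aorta none of the tested genes of these lists had an unadjusted p under 0.05.

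A wider list of 41 further interferon-stimulated genes tested in liver had 39 below 0 and a median of −0.45, with 20 at an unadjusted p under 0.05, all lower, and 0 passing in edgeR. Over all liver features 48.2% lay below 0 and 5.38% were lower at that level. Apol9b was at 340, 300, 282 and 282 CPM in HuBL livers and at 180, 227, 193 and 171 CPM in BT3xHuBL livers, a log2 fold change of −0.64 (SE 0.11, edgeR adjusted p = 0.138). Oas1b, an OAS family gene tied to flavivirus resistance, and Ifi203 of the DNA-binding p200 family were at −0.97 (SE 0.20) and −0.79 (SE 0.17). Without BT3xHuBL replicates 3 and 4 36 of the 41 lay below 0 with a median of −0.21, and Apol9b was at −0.56. In that fit 11 had an unadjusted p under 0.05, where 12.1% of features did. In aorta 29 of 42 lay below 0 with a median of −0.08, where 51.5% of features lay below 0. Genes that answer mainly to interferon gamma parted by tissue. In liver all 16 tested genes of a list of guanylate-binding proteins, immunity-related GTPases, chemokines and Ciita, the regulator of MHC class II genes, lay below 0, with a median of −0.59, Cxcl10, a T cell attracting chemokine, at −1.41 (SE 0.28) and Cxcl9 at −1.07 (SE 0.25). Without BT3xHuBL replicates 3 and 4 15 lay below 0 with a median of −0.32, and both chemokines were at −1.07. In aorta 14 of the 16 lay above 0, with a median of 0.32, where 48.5% of all features did. Without BT3xHuBL aorta replicate 1 the median was 0.13. Gbp4, a guanylate-binding protein, was at 9.92, 8.7 and 10.1 CPM in HuBL aortas and 28.7, 26 and 14.5 CPM in BT3xHuBL aortas, a log2 fold change of 1.26 (SE 0.24, edgeR adjusted p = 0.427). It passed without BT3xHuBL aorta replicate 3 (1.51, edgeR adjusted p = 0.00105) and in DESeq2 (adjusted p = 5.15e-06). DESeq2 also called Igtp higher in aorta (0.66, adjusted p = 0.0472), where it called 0.442% of features. In liver DESeq2 called Socs1, Irf1, Apol9a, Apol9b, Oas1b, Ifi203, Slfn2, Slfn5, Slfn8, Trim12c, Trim34a, Gbp5, Gbp6, Cxcl9 and Cxcl10 lower. Over all liver features it called 0.787% lower. Cxcl9 also passed in edgeR with the replicate number as a block (adjusted p = 0.0107). The interaction had an unadjusted p under 0.05 for 12 of these 16 genes, all higher, where 4.48% of features were higher at that level. The count was 7 without BT3xHuBL liver replicates 3 and 4 and 8 without BT3xHuBL aorta replicate 1. In these fits 10.2% and 7.57% of features reached that level. In edgeR 0 passed, with Gbp4 at 1.86 (SE 0.37, edgeR adjusted p = 0.21). DESeq2 called Igtp (1.42, adjusted p = 0.00858) and Iigp1 (1.18, adjusted p = 0.0351) of this list. It also called Irf1, Gm4951 and Trim12c of the other lists, and 0.351% of all features. No difference between this list and the members was tested.

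Summed markers of some immune cells lay apart between the genotypes and others overlapped. In liver the summed T cell markers (7 of 8 listed genes matched, all with counts) were 11.4 to 24.6 CPM in HuBL and 5.95 to 10.8 CPM in BT3xHuBL, without overlap. Summed monocyte markers (6 of 6) were 16.8 and 27.4 CPM in BT3xHuBL replicates 3 and 4 and 34.7 to 43 CPM in the other 6 livers. Summed Kupffer cell markers (5 of 5) were 211 CPM in BT3xHuBL replicate 3 and 330 to 557 CPM in the rest. The same list summed to 1380 to 1420 CPM in HuBL and 1140 to 1480 CPM in BT3xHuBL aortas, with Clec4f at 0. It is therefore not particular to Kupffer cells. Plasmacytoid dendritic cells are strong interferon producers, and their 7 markers summed to 7.13 to 11 CPM in HuBL and 4.71 to 12.7 CPM in BT3xHuBL livers. In aorta these were 6.01 to 6.20 and 4.65 to 5.78 CPM, with Klk1 at 0 in BT3xHuBL. B cell markers (8 of 8) summed to 50.4 to 62.1 and 39.5 to 48.6 CPM in aorta, and plasma cell markers (7 of 7) to 717 to 1140 and 379 to 549 CPM. These 3 aorta ranges did not overlap. The genotypes did overlap for macrophage, neutrophil and NK cell markers in both tissues, for B cell and plasma cell markers in liver, and for T cell, monocyte and Kupffer cell markers in aorta. Macrophage markers (8 of 8), for example, summed to 234 to 347 CPM in HuBL and 189 to 332 CPM in BT3xHuBL livers, and to 7660 to 9050 and 7070 to 9090 CPM in aortas. Their part in the members' differences was not tested.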

How the data were processed

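RNA-seq counts of 6 aorta and 8 liver libraries were used; the 40 members, gene lists and tests were chosen with earlier results of these data known. A Qiagen kit and Lexogen QuantSeq V2 were used for RNA and libraries, per the labels' protocols, and QuantSeq reads the 3′ end of a transcript. The authors deposited counts per feature, not normalized, in 1 table per tissue. HTSeq 2.0 and GRCm38 are named in the submitters' processing notes; the aligner, strand setting and annotation were not given in the sources used here. Without a strand setting, reads of overlapping genes cannot be told apart, and the 3 members with the tables' overlap mark (Ifi27l2a, Parp9 and Dtx3l) are uncertain to that degree. The tables' feature coordinates did not match GRCm38, so gene positions come from GENCODE M21 and promoters from RefSeq (GRCm38.p6).

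Aorta and liver were fitted separately in edgeR 4.0.16 (R 4.3.3), with features kept by filterByExpr, library sizes scaled by TMM, and a two-sided robust quasi-likelihood F-test. P-values were adjusted by Benjamini-Hochberg over all features tested, with a threshold of 0.05. Interaction and tissue tests used all 14 libraries. CPM were computed here with TMM-scaled library sizes. Log2 fold changes use a prior count of 0.125 in edgeR, and intervals are at 95%. Alternatives were other scalings, other filters, DESeq2 1.42.0, limma-voom (limma 3.58.1), no robust weights, all libraries in a common fit, the replicate number as a block, members without an overlap mark, and each library left out in turn. A fit without BT3xHuBL liver replicates 3 and 4 was chosen after seeing the data, as were the role groups. The edgeR script was tested on simulated data. Precision is limited by the 3 or 4 libraries per group.

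The members described most fully are those with the 6 smallest p per tissue, the 4 smallest in the interaction, the 4 largest tissue differences lower in aorta and the 2 members higher there; others (Ifit3, Oas3 and Irf9 among them) were chosen after their values were seen. Pathway genes named are those of smallest p in their list with a mean of at least 1 CPM. A gene of the list of receptors and kinases is not reported here and was left out of its counts.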

Additional observations from a re-analysis of the deposited data

Results flagged for a closer look

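Irf7 in BT3xHuBL livers had 1 library far from the others. Replicate 2 was at 387 CPM, the nearest other library at 223 CPM, and this gap was 0.832 of the whole range of the group, just above Dixon's limit for 4 libraries. It was the only such case among 80 sets of a member and a liver genotype, and chance gives about 1 in 20. Without this library the liver difference of Irf7 passed in edgeR, as described above.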

How the results depend on the processing

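Over all 40 members and all alternatives, direction changed in 21 of 637 values in aorta, 3 of 760 in liver, 37 of 960 in the interaction and 1 of 960 between tissues. The last was Lgals3bp, at 0.22 when scaled by total counts, and the 3 in liver were Parp12, Parp9 and Dtx3l without BT3xHuBL replicates 3 and 4. Calls were lost by 2 members, Lgals3bp and Ifit2 between tissues under total counts, and gained 7 times in liver, 6 of them under DESeq2 and the other Irf7 without BT3xHuBL replicate 2. The count of members called in liver, 0 in the edgeR fit, was 6 with DESeq2 and 0 to 1 with 1 library left out. The count at an unadjusted p under 0.05 in liver, 20, was 13 scaled by total counts, 32 with limma-voom, 6 without BT3xHuBL replicates 3 and 4, and 9 to 36 with 1 library left out: 10 without BT3xHuBL replicate 3, 13 without replicate 4, 36 without replicate 2, 11 without HuBL replicate 2 and 9 without HuBL replicate 3. Over all liver features 10.2% reached that level scaled by total counts and 8.27% to 11.7% with 1 library left out. In aorta the same count of members, 11, was 2 with all libraries in a common fit and 3 to 13 with 1 library left out. Over all aorta features 3.37% and 3.23% to 7.58% reached that level in these fits. The cause of these shifts was not tested. The median of the members stayed below 0 throughout, from −0.834 to −0.351 in liver and from −0.292 to −0.109 in aorta. Deviations of same-numbered libraries of the genotypes correlated at −0.083 to 0.12 in aorta and −0.057 to 0.187 in liver. The numbers were therefore not taken as pairs between genotypes. Same-numbered aorta and liver libraries correlated at −0.008 to 0.214 in HuBL and 0.072 to 0.186 in BT3xHuBL. Differently numbered ones correlated at −0.22 to 0.199 and −0.119 to 0.028. Whether same-numbered aorta and liver libraries share a mouse is not stated, and the main tests did not pair them. With the replicate number as a block, 0 members were called in aorta, liver or the interaction, and the medians were −0.217 and −0.665. An unadjusted p under 0.05 was found for 15 and 22 members, where 4.34% and 11.3% of features reached that level. Calls over all features went from 4 to 14 in aorta and from 0 to 10 in liver.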
